A study of Mus musculus with 12 samples.

Results

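Optn, which encodes the autophagy receptor optineurin, was examined beside 9 further genes of selective autophagy in mES cells that were losing BRG1. The 10 genes were taken by symbol from the deposited table of 24421 genes: the receptors Optn, Sqstm1, Calcoco1, Tax1bp1 and Nbr1, the kinase gene Tbk1, and the ATG8 genes Map1lc3a, Map1lc3b, Gabarapl1 and Gabarapl2. Optn was chosen by its measured RPKM, which follow the dose, so its values are given as a description without a test. The other 9 genes were listed for what they encode, and all 10 passed the filter on low values (mean RPKM over the 12 libraries no lower than 1), which left 11378 genes to test.

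The cells were B6 mouse embryonic stem cells grown in 2i+LIF, and every library, the controls included, carried the Brg1 dTag knock-in. This tag places a degron on BRG1, the main ATPase of the mSWI/SNF chromatin remodellers in these cells, so that the small molecule dTAG13 sends the protein to the proteasome, and higher doses leave less of it. Cells were treated with 0.3, 1, 3, 10 or 100 nM dTAG13 for 24 h, and the group without dTAG13 is called the control. Each of the 6 conditions had 2 RNA-seq libraries, 12 in all. The knock-in line was grown from picked single-cell colonies, and how many clones the libraries represent is not stated in the sources used here. The study describes its expression data as independent experiments, the labels do not describe the cultures behind the 2 libraries of a condition, and p-values measure the spread between these libraries.

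Selective autophagy delivers damaged mitochondria, protein aggregates and invading bacteria to the lysosome. Many receptors recognise ubiquitin on the cargo with one part of the protein and bind ATG8 proteins, which are lipid-anchored to the growing autophagosome membrane, with another. TBK1 phosphorylates several receptors, optineurin among them, and thereby strengthens their binding to ubiquitin chains and to ATG8 proteins.

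Total counts ran from 4663484 to 6375582 read pairs per library, with a median of 5956669.5. All 8 mES cell markers exceeded 1 RPKM (counts scaled to the length of the exons and to the library size after TMM normalization) in every condition, with summed levels of 1260 to 1400 RPKM. Single markers differed in both directions between the control and 100 nM, with means of 229 and 329 RPKM for Nanog and of 131 and 84.0 RPKM for Tfcp2l1. No marker of primitive endoderm or fibroblasts exceeded a mean of 1 RPKM in any condition, although the summed level of the 6 primitive endoderm markers was 1.98 to 2.72 RPKM at 100 nM and 0.721 to 1.36 RPKM in the other conditions. Of 6 trophectoderm markers 4 exceeded 1 RPKM in each condition, with a sum of 21.9 to 26.5 RPKM, but not the same 4. From the control to 100 nM the mean of Cdx2 went from 0.552 to 4.76 RPKM and that of Tfap2c from 3.38 to 5.46 RPKM, while Krt8 went from 9.10 to 2.23 RPKM and Gata3 from 1.33 to 0.563 RPKM. The part of such marker differences in the results at 100 nM was not tested. The transcript of Smarca4, which encodes BRG1, stood at 63.5 to 71.3 RPKM, and since the degron acts on the protein this does not check the dose labels. The library numbers in the labels form one series for the control, 1, 10 and 100 nM and a separate series for 0.3 and 3 nM. If the series mark separate sequencing runs, the run and the dose cannot be told apart in comparing 0.3 or 3 nM with the control, and 3 nM is therefore also compared with 0.3 nM.

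Optn lies on the minus strand of mm10 chromosome 2, chr2:5020642-5063938, with 2413 bases of exon in the count table. Its control libraries held 161 and 147 counts, or 11.5 and 9.91 RPKM. At 0.3 nM the libraries stood at 9.50 and 7.56 RPKM, and at 1 nM at 5.86 and 6.35 RPKM. They held 2.69 and 2.28 RPKM at 3 nM. With 15 and 10 counts the 10 nM libraries were at 1.03 and 0.716 RPKM, and with 4 and 9 counts the 100 nM libraries were at 0.274 and 0.610 RPKM. Each pair of libraries lay wholly below the pair of the next lower dose, so that no 2 neighbouring doses overlapped.

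As means, Optn was at 10.7 ± 1.09 RPKM in the control and at 8.53 ± 1.37 RPKM at 0.3 nM (SD, n = 2 at every dose), which is 79.9% of the control. The mean was 6.10 ± 0.345 RPKM or 57.1% at 1 nM, and 2.49 ± 0.288 RPKM or 23.3% at 3 nM. It was 0.872 ± 0.220 RPKM or 8.16% at 10 nM, and 0.442 ± 0.237 RPKM or 4.14% at 100 nM. The steps were unequal: the mean was 1.25-fold lower from the control to 0.3 nM and 1.40-fold lower from 0.3 to 1 nM, then 2.45-fold lower from 1 to 3 nM and 2.85-fold lower from 3 to 10 nM, and 1.97-fold lower from 10 to 100 nM. The last step rests on 25 counts against 13 over both libraries. A total of 13 counts has an exact 95% Poisson interval of 6.92 to 22.2. This interval covers the counting error of reads and not the spread between libraries, and the reads carry no molecular identifiers. Between 0.3 and 3 nM, which share a number series, the fitted log2 difference was -1.78 (SE 0.22).

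Ranked by fitted log2 difference from the control over the 11378 genes, with the lowest first, Optn was at rank 943 at 0.3 nM, where its difference was -0.32. It was at rank 242 at 1 nM and at rank 60 at 3 nM, with a difference of -2.10. The difference was -3.60 and the rank 14 under 10 nM, and 100 nM gave rank 2. These libraries hold RNA of whole cultures, in which fewer Optn-expressing cells and less Optn RNA per cell cannot be told apart. Leaving out 1 library of 100 nM moved the difference at that dose, -4.56, to -4.11 without replicate 1 and to -5.24 without replicate 2.

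**Figure D1:**
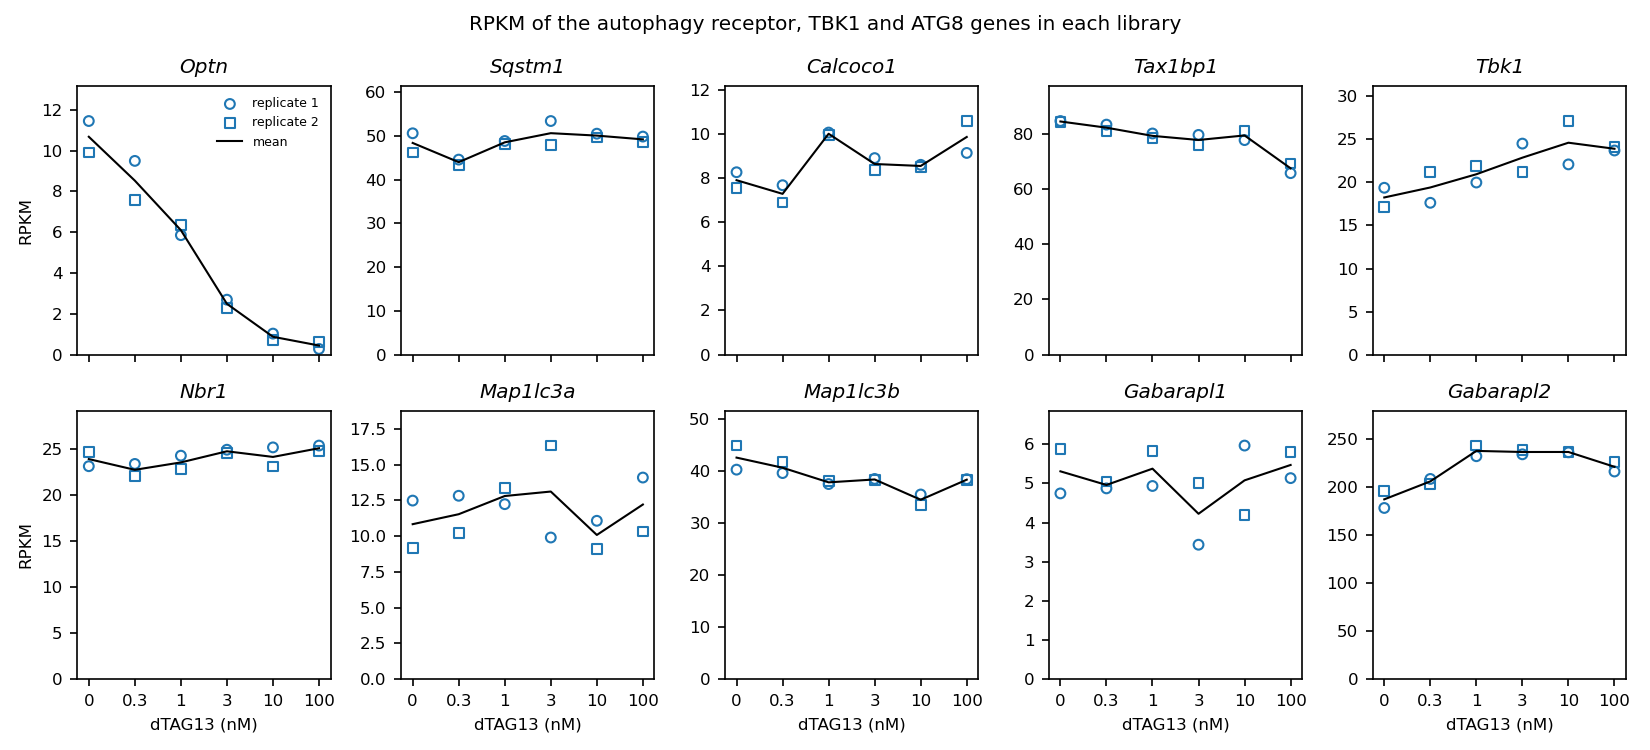
RPKM (vertical axes, from 0, scaled per gene) of the 10 genes in each of the 12 libraries against the dTAG13 dose in nM (horizontal axes, equally spaced, 0 for the control). Circles and squares are replicates 1 and 2 and lines join the means. Optn goes from 10.7 to 0.442 RPKM, while the means of the 9 other genes at 100 nM lie between 79.9% and 131% of the control.

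The bases upstream of Optn are shown beside those of Ildr1, the gene nearest to it in dose pattern, and of Sqstm1, a receptor gene whose level differed little between doses. The sequences are the 250 bases before the RefSeq start of each gene on mm10, 5′ to 3′ on the strand of the gene: chr2:5064118-5064367 (minus) for Optn, chr16:36693728-36693977 (plus) for Ildr1 and chr11:50210821-50211070 (minus) for Sqstm1. Capitals mark GGGCGG or its reverse complement CCGCCC, the core of the box that SP1 binds.
Optn: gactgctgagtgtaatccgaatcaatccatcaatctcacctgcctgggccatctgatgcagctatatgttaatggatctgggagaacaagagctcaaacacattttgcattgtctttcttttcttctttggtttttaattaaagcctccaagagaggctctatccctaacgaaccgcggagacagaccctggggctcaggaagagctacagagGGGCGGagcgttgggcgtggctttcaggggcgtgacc
Ildr1: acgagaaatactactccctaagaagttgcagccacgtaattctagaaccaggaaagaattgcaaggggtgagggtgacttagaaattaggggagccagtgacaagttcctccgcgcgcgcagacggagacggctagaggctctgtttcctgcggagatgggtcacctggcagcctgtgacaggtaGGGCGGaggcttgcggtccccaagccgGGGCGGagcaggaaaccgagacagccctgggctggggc
Sqstm1: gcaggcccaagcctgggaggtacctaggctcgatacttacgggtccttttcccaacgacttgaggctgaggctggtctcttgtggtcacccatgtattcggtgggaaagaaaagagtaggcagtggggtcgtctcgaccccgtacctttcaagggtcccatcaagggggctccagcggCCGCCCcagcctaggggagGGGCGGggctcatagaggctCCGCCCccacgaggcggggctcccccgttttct
The Optn window held 1 such box and 50% G and C, the Ildr1 window 2 boxes and 59.2%, and the Sqstm1 window 3 boxes and 63.2%. The RefSeq start of Optn lies 179 bases upstream of the end of the gene in the count table, which is its 5′ end on the minus strand. Bases after the RefSeq start were found in GENCODE transcripts of Ildr1 and Sqstm1, but not in those of Optn. Whether the Optn window lies directly before the start of the counted transcript is therefore not known. Windows were matched for 9 of the 10 genes, all but Map1lc3a, with 11 windows in all because Tax1bp1 and Nbr1 had more than 1. GGGCGG on either strand was in 7 of the 11 windows, against 32.7% of 32851 windows of all genes. The windows of all genes were not limited to genes that passed the filter on low values, as all 10 genes did, so the sets are unlike. CCAAT was in 2 of the 11, both of Nbr1, and in 33.8% of all windows. Neither CACGTG, in 6.02% of all windows, nor TGANTCA, in 6.75%, was found in any of the 11. Of the 5 genes nearest to Optn in dose pattern, with 1 window each, 2 had GGGCGG, 4 had CCAAT, 2 had TGANTCA and 1 had CACGTG. No motif contains another, both strands were searched, and a match describes the letters of the window only.

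The genes closest to Optn in dose pattern were found by the root mean square difference from Optn in log2 difference from the control over the 5 doses. Nearest was Ildr1, a tricellular junction gene, at 0.304, followed by Hal, which encodes histidine ammonia-lyase, at 0.507 and Laptm5, which encodes a lysosomal membrane protein, at 0.619. Plet1 followed at 0.817 and Klf15, a Krüppel-like factor gene, at 0.839. Over the 12 libraries Pearson's r of log2(RPKM + 0.1) with Optn was 0.968 for Ildr1, 0.972 for Hal, 0.979 for Laptm5, 0.940 for Plet1 and 0.937 for Klf15. By r, the same genes ranked 52, 40, 12, 184 and 195 among all tested genes, so many other genes had a higher r with Optn. These r values describe libraries that share doses and depth.

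The 5 genes passed through different mid-dose levels on the way to low ones. Ildr1 was at 76.6%, 48.5% and 18.2% of its control mean under 0.3, 1 and 3 nM. Laptm5 was at 29.2% at 3 nM and Hal at 37.4%, whereas Klf15 was at 43.0% and Plet1 at 47.2%. At 100 nM all 5 stood between 5.92% and 8.05%, above the 4.14% of Optn. In counts, the 100 nM libraries held 9 and 9 for Ildr1 and 3 and 7 for Hal, so their order is not resolved at this depth. Plet1 shares 261 bases of exon with the antisense gene Plet1os, and the strand was not used in counting.

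**Figure D2:**
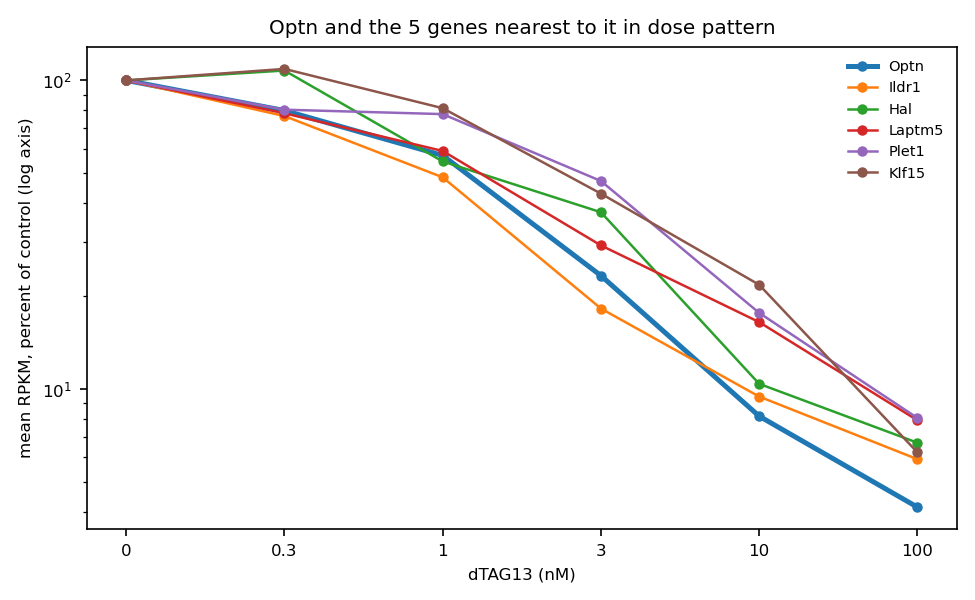
Mean RPKM as percent of the control mean (vertical log axis, n = 2 libraries a point) of Optn and the 5 genes nearest to it against dTAG13 dose in nM (equally spaced). Ildr1 runs below Optn from 0.3 to 3 nM and all 5 genes lie above it at 10 and 100 nM.

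Among the 9 other genes of the group, none passed an adjusted p of 0.05 together with a 1.5-fold change at any dose. Of all tested genes 0.0176%, 0.914%, 3.9%, 7.93% and 11.2% did so, from the lowest dose to the highest. By adjusted p alone (the quasi-likelihood test of edgeR, Benjamini-Hochberg adjusted over all 11378 genes), 3 of the 9 passed at 100 nM, 2 higher and 1 lower. The background was 23.4% of all tested genes, 10.1% higher and 13.3% lower, so that 3 of 9, or 33.3%, is a share that 1 gene fewer would bring below it. At 10 nM 2 genes were higher (background 7.87%) and 1 was lower (background 10.1%), with 17.9% of all genes passing in either direction. At 1 nM 1 gene was higher (background 0.773%, or 2.29% in either direction), as was 1 at 3 nM (background 4.15%, or 9.4% in either direction), and none passed at 0.3 nM (background 0.0703%) or between 3 and 0.3 nM (background 5.31%). In the test over all doses together 3 of 9 passed, Tax1bp1, Tbk1 and Gabarapl2, against 21.4% of all genes. With edgeR's likelihood ratio test, the test of the study's methods, Calcoco1 passed as well (adjusted p = 0.0394). Its adjusted p was 0.0641 in the quasi-likelihood test and 0.393 in DESeq2's likelihood ratio test. The 21.4% belongs to the quasi-likelihood test, and a share of all genes for the likelihood ratio test is not given here. The median log2 fold change of the 9 genes at 100 nM was 0.07, beside 0 for all tested genes.

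In control levels, per kb of exon, Gabarapl2 came first at 187 RPKM, then Tax1bp1 at 84.6, Sqstm1 at 48.4, Map1lc3b at 42.6, Nbr1 at 23.9 and Tbk1 at 18.3 RPKM. Map1lc3a at 10.8 RPKM and Optn at 10.7 RPKM overlapped, followed by Calcoco1 at 7.91 and Gabarapl1 at 5.31 RPKM. The gap of 5.74 RPKM between Sqstm1 and Map1lc3b was smaller than the sum of their SDs, and neighbours elsewhere in this order, apart from Map1lc3a and Optn, differed by more than that sum. Optn was thus level with Map1lc3a and at position 8 of 10 in the control, and at position 10 at 100 nM.

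Among the receptors, Tax1bp1, which carries aggregated and ubiquitinated cargo, fell at 100 nM. Its control libraries were at 84.8 and 84.4 RPKM, and its libraries of 0.3 to 10 nM lay between 76.0 and 83.5 RPKM. At 100 nM they were at 65.8 and 69.3 RPKM. Both libraries of 100 nM were below every other library. The log2 fold change was -0.32 (SE 0.059, adjusted p = 0.000185 in edgeR's quasi-likelihood test), and the adjusted p stayed between 5.17e-08 and 0.0258 over all alternatives. At 10 nM it was -0.09 (adjusted p = 0.342 in the same edgeR test). Tax1bp1 thus stood at 79.9% of the control, and Optn, chosen because its levels follow the dose, at 4.14%.

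Sqstm1 encodes p62, which gathers ubiquitinated proteins into condensates. Its control libraries were at 50.6 and 46.2 RPKM and its 100 nM libraries at 49.8 and 48.6 RPKM, within the control range. Over all 12 libraries Sqstm1 lay between 43.4 and 53.4 RPKM. The log2 fold change at 100 nM was 0.02 (95% interval -0.14 to 0.19, adjusted p = 0.868 in edgeR's quasi-likelihood test). Nbr1, the receptor of peroxisomes and partner of p62, was at 23.1 and 24.6 RPKM in the control and at 25.3 and 24.8 RPKM at 100 nM. Its 100 nM libraries were both just above the control ones, with a fitted log2 fold change of 0.07 (95% interval -0.08 to 0.22, adjusted p = 0.558 in the edgeR test). These 2 intervals leave room for changes of at most 1.17-fold.

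Calcoco1, a receptor gene for the endoplasmic reticulum and Golgi, was at 8.27 and 7.55 RPKM in the control and at 9.15 and 10.6 RPKM at 100 nM. Both treated libraries were above both controls, and the 1 nM libraries, at 10.1 and 9.96 RPKM, were as high. The 0.3 nM libraries, at 7.68 and 6.90 RPKM, were not. The log2 fold change at 100 nM was 0.32 (95% interval 0.05 to 0.59, unadjusted) with an adjusted p of 0.0810 in edgeR's quasi-likelihood test, which did not pass.

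Tbk1, the kinase gene, was higher at the upper doses. Its libraries stood at 19.4 and 17.1 RPKM in the control, at 17.6 and 21.2 RPKM at 0.3 nM and at 19.99 and 21.9 RPKM at 1 nM. They stood at 24.5 and 21.2 RPKM at 3 nM, at 22.1 and 27.1 RPKM at 10 nM and at 23.7 and 24.1 RPKM at 100 nM. From 1 nM on, both libraries of each dose were above both controls. The log2 fold change was 0.43 (SE 0.11, adjusted p = 0.00724 in edgeR's quasi-likelihood test) at 10 nM and 0.39 (SE 0.11, adjusted p = 0.0111 in the same edgeR test) at 100 nM. Both calls were lost when certain single libraries were left out. Over all alternatives the log2 fold change stayed between 0.28 and 0.57 at 10 nM and between 0.30 and 0.48 at 100 nM. Without control replicate 2 the edgeR adjusted p at 100 nM was 0.155, and it was also over 0.05 without either 100 nM library. At 10 nM it reached 0.159 without 10 nM replicate 2 and was over 0.05 without control replicate 2 as well.

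**Figure D3:**
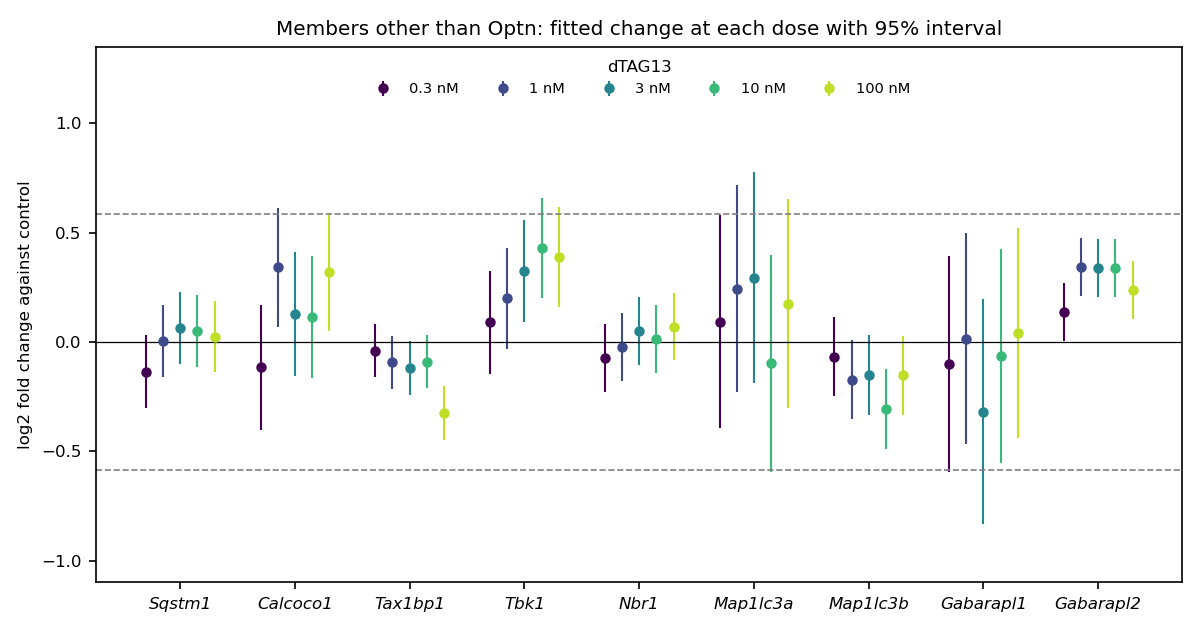
Fitted log2 fold change against the control (vertical axis) at each of the 5 doses for the 9 genes other than Optn, with unadjusted 95% intervals as bars. The dashed lines mark 1.5-fold in either direction, and every point lies between them.

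Gabarapl2 (GATE-16), the most abundant ATG8 gene here, was higher from 1 nM upward. Its control libraries were at 178 and 196 RPKM and those of 0.3 nM at 208 and 203 RPKM. The libraries of 1 nM were at 232 and 243 RPKM, those of 3 nM at 234 and 238 RPKM and those of 10 nM at 236 and 236 RPKM. At 100 nM they were at 216 and 226 RPKM. All treated libraries lay above both controls, and the 1, 3 and 10 nM libraries all lay above those of 100 nM. The log2 fold change was 0.34 at 1, 3 and 10 nM (adjusted p = 0.00311, 0.00104 and 0.000436 in edgeR's quasi-likelihood test) and 0.24 (SE 0.064, adjusted p = 0.00745 in the same edgeR test) at 100 nM. Between 3 and 0.3 nM it was 0.20 (adjusted p = 0.0703 in the edgeR test), which did not pass. Without control replicate 1, the lower of the controls, the edgeR adjusted p was 0.123, 0.0501, 0.0290 and 0.141 for 1, 3, 10 and 100 nM in turn. The calls at 1 and 100 nM were also lost without replicate 2 of those doses.

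Map1lc3b (LC3B), the ATG8 protein most used as a marker of autophagosomes, was at 40.3 and 45.0 RPKM in the control. Its libraries of 1 and 3 nM lay between 37.5 and 38.5 RPKM, those of 10 nM were at 35.5 and 33.5 RPKM, and those of 100 nM at 38.5 and 38.3 RPKM. The 10 nM libraries were the lowest, and those of 3 and 100 nM overlapped. On the log2 scale the fold change was -0.31 (SE 0.089, adjusted p = 0.0171 in edgeR's quasi-likelihood test) at 10 nM and -0.15 (adjusted p = 0.228 in the same edgeR test) at 100 nM. The 10 nM call was lost with DESeq2, without normalization factors, and without control replicate 2 (edgeR adjusted p = 0.193) or 10 nM replicate 2.

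The remaining ATG8 genes had few counts and wide intervals. Map1lc3a (LC3A) held 51 to 96 counts per library, with 12.5 and 9.19 RPKM in the control and 14.1 and 10.3 RPKM under 100 nM, which overlap. The fitted log2 fold change under 100 nM was 0.18 (95% interval -0.30 to 0.65, adjusted p = 0.641 in edgeR's quasi-likelihood test). Gabarapl1 held 30 to 64 counts, with 4.75 and 5.87 RPKM in the control and 5.14 and 5.81 RPKM at 100 nM, inside the control range. A log2 fold change of 0.04 was fitted (95% interval -0.44 to 0.52, adjusted p = 0.932 in the edgeR test). As fold changes, the intervals run from 0.811 to 1.57 for Map1lc3a and from 0.737 to 1.44 for Gabarapl1. They leave room for rises and falls within these bounds. Read pairs that mapped to several places were not counted, so any pair shared with a close copy of an ATG8 gene is missing from these levels. Gabarapl1 also shares 47 bases of exon with the antisense gene 1700101I11Rik, and read pairs assigned to both genes were not counted.

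The wider autophagy machinery was taken as a list of 80 genes in 9 classes, of which 73 were tested. At 100 nM 17 of the 73 genes, or 23.3%, were lower (background 13.3%), 6, or 8.22%, were higher (background 10.1%), and 50 did not pass edgeR's quasi-likelihood test. The median log2 fold change of the list was -0.07, beside 0 for all genes. Past 1.5-fold, 4 were lower and 5 higher (backgrounds 6.83% and 4.37%). The count of lower genes was 10 with DESeq2, where 9.25% of all tested genes were lower, and 10 without normalization factors, where 8.95% were. It was 10 without control replicate 1 (9.87% of all genes), 10 without control replicate 2 (9.24%) and 9 without 100 nM replicate 1 (9.24%). The count of higher genes was 3 without control replicate 1 or 100 nM replicate 2.

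Of the transcriptional and signalling regulators 5 of 8 tested genes were lower, with a median of -0.43. These counts by class, here and for the classes that follow, are small and stand beside 13.3% lower and 10.1% higher of all tested genes. Mitf, a basic helix-loop-helix factor whose family activates lysosomal and autophagy genes, fell from 16.6 and 14.8 RPKM in the control to 4.09 and 2.65 RPKM at 100 nM, a log2 fold change of -2.22 (SE 0.15, adjusted p = 1.17e-11 in the edgeR test). Its relatives Tfeb and Tfe3 fell by 0.44 and 0.52 on the log2 scale (edgeR adjusted p = 0.00743 and 0.00224). Of the fusion and lysosome genes 4 of 11 were lower and 1 was higher. Ctsd, encoding the protease cathepsin D, went from 79.6 and 81.1 RPKM to 53.5 and 55.7 RPKM (log2 fold change -0.56, edgeR adjusted p = 2.91e-06). Lamp2, a major lysosomal membrane protein, went from 8.51 and 7.49 RPKM to 4.71 and 5.43 RPKM (-0.66, edgeR adjusted p = 0.000589). Stx17, the SNARE gene of autophagosome fusion, was higher, from 1.04 and 0.930 RPKM to 1.83 and 1.75 RPKM (0.86, edgeR adjusted p = 0.0206).

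In the ATG8 conjugation class 2 of 11 genes were lower and 1 was higher. Gabarap, the remaining member of the GABARAP subfamily, fell from 19.9 and 16.4 RPKM to 11.1 and 12.2 RPKM (-0.64, edgeR adjusted p = 0.0181), whereas Gabarapl2 rose. Atg10, the E2-like enzyme of ATG12 conjugation, had 4 and 2 counts in the control and 18 and 22 counts at 100 nM, with a fitted log2 difference of 2.66. It passed the filter on low values only through its 100 nM libraries, since the mean of the other conditions was 0.981 RPKM, so the difference is a description. Without Atg10, 5 of 72 genes of the list were higher, 4 of them past 1.5-fold. Of 17 other receptors 2 were lower and 2 higher. The mitophagy receptor genes Bnip3 and Fundc1 were the higher ones. Bnip3 went from 2.64 and 2.97 RPKM to 6.98 and 5.12 RPKM (1.10, edgeR adjusted p = 0.00904). Fundc1 went from 6.96 and 10.4 RPKM to 12.7 and 14.4 RPKM (0.63, edgeR adjusted p = 0.00624). Other mitophagy receptor genes of the class did not pass. These were Bnip3l (-0.21, edgeR adjusted p = 0.193), Fkbp8 (0.13, 0.148), Bcl2l13 (0.03, 0.845) and Phb2 (-0.07, 0.450).

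Beside Tbk1, its adaptor gene Tbkbp1 was higher, from 3.04 and 1.95 RPKM in the control to 6.60 and 4.61 RPKM at 100 nM (1.17, edgeR adjusted p = 0.000247). The other 2 tested genes of that class did not pass. Of 7 genes that supply membrane 2 were lower, among them Wdr45, which went from 104 and 90 counts to 60 and 54 counts (-0.79, edgeR adjusted p = 0.00272). The initiation complex had 1 of 4 genes lower, the PI3-kinase complex 1 of 7 higher and the binding partners of optineurin 1 of 5 lower. Mitf was the lowest gene over all classes. Optn lay lower still, but it was chosen by its levels, so this contrast carries no weight of its own.

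**Figure D4:**
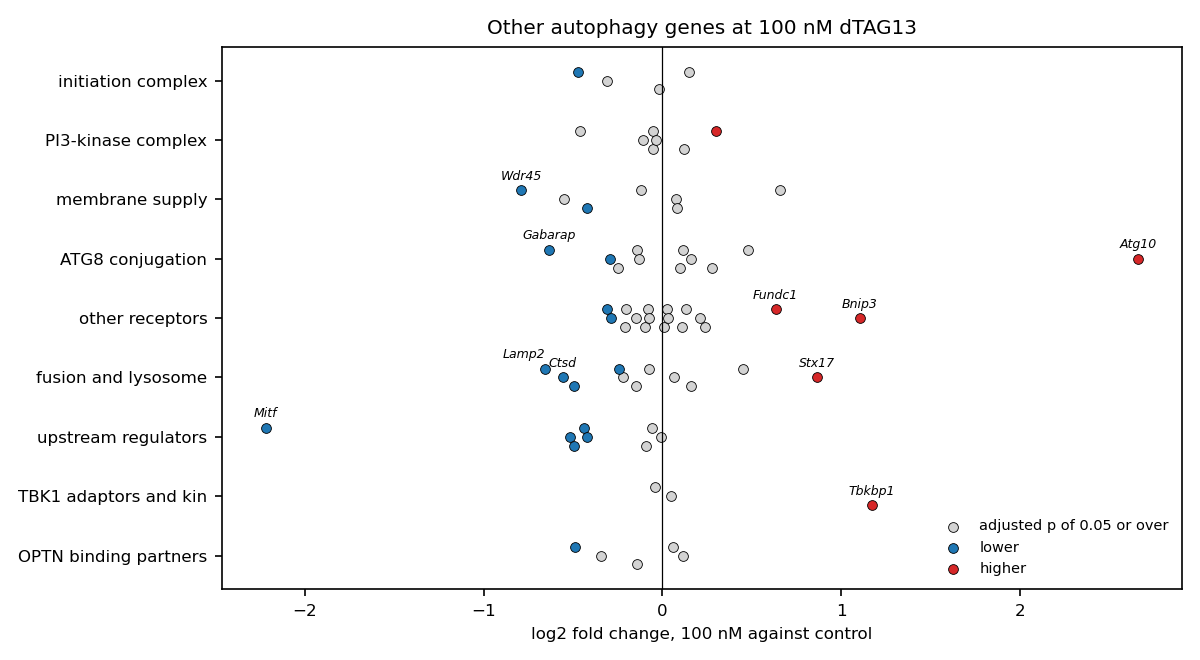
Log2 fold change at 100 nM against the control (horizontal axis) of the 73 tested genes of the wider autophagy list, each point a gene, in rows by class with vertical offsets only for legibility. Blue and red points passed an adjusted p of 0.05; 17 are lower and 6 are higher, and Mitf at -2.22 and Atg10 at 2.66, which passed the filter only through its 100 nM libraries, lie outermost.

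Around Optn on chromosome 2, 7 other genes of the table had a part within 250 kb. Of the 5 tested, 4 were lower at 100 nM and none was higher in edgeR's quasi-likelihood test (background 13.3% lower), and Bend7 and Ucma were below the filter. Mcm10, a replication factor gene 7.85 kb away, was at 59.2 and 60.5 RPKM in the control and at 47.7 and 43.7 RPKM at 100 nM, a log2 fold change of -0.39 (SE 0.065, edgeR adjusted p = 6.21e-05). Phyh, which encodes a peroxisomal enzyme of phytanic acid breakdown, 81.9 kb away, was at 16.8 and 17.2 RPKM in the control and at 6.63 and 8.10 RPKM at 100 nM (-1.21, edgeR adjusted p = 3.24e-06).

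On the other side, Ccdc3 at 73.8 kb had 34 and 33 counts in the control and 15 and 6 at 100 nM (-1.68, edgeR adjusted p = 0.00233). Camk1d, a calcium-dependent kinase gene 230 kb away, was at 4.82 and 4.34 RPKM in the control and at 2.19 and 1.85 RPKM at 100 nM (-1.18, edgeR adjusted p = 1.02e-05). At 3 nM Camk1d and Phyh also passed, with edgeR adjusted p of 0.000192 and 0.0275 (background 9.4% in either direction). The Camk1d libraries of 3 nM were at 1.60 and 2.71 RPKM, and its mean was 2.16 RPKM at 3 nM and 2.36 RPKM at 10 nM. If the number series mark separate runs, run and dose cannot be told apart in these calls at 3 nM. Sephs1, 110 kb away on the side of Mcm10 and Phyh, was at 10.8 and 11.4 RPKM in the control. At 100 nM it was at 10.9 and 10.4 RPKM (-0.06, edgeR adjusted p = 0.709). As means, all 4 neighbours that fell kept over 30% of their control level at 100 nM. The 100 nM libraries of Ccdc3, with few counts, stood apart at 44.3% and 17.5% of its control mean. Optn, chosen because its levels follow the dose, kept 4.14%.

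**Figure D5:**
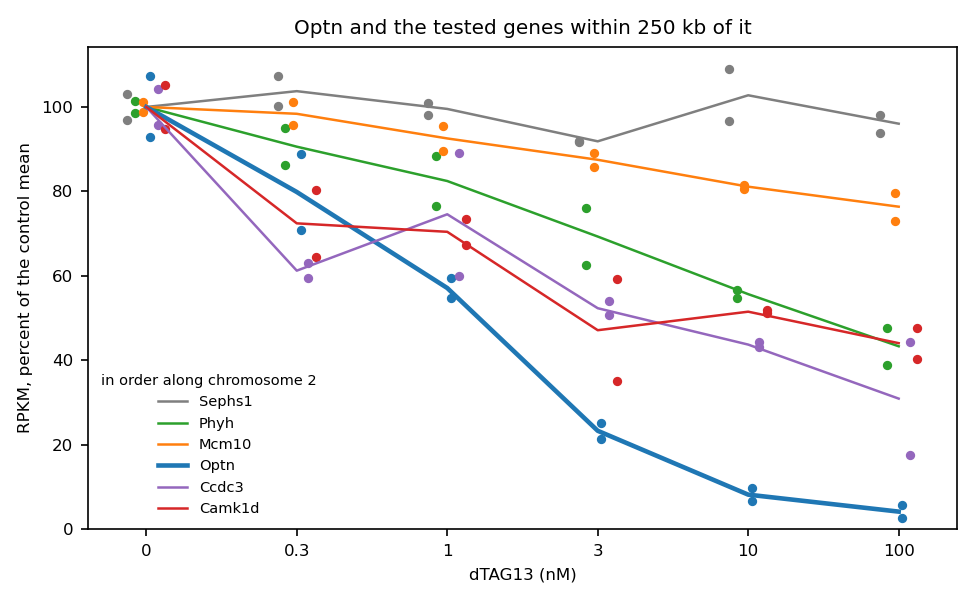
RPKM as percent of the control mean (vertical axis) for Optn and the 5 tested genes within 250 kb of it, in order along chromosome 2, against dTAG13 dose in nM (equally spaced). Points are libraries, 2 per gene and dose, and lines join means; Optn is the lowest line from 1 nM on, and Sephs1 and Mcm10 are the highest at 100 nM.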

How the data were processed

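RNA-seq libraries were analysed for 6 dTAG13 conditions with 2 libraries each, grouped by the sample labels. Per the labels and methods, the authors trimmed reads with Trim Galore, aligned them to mm10 with HISAT2 and counted pairs on exons with featureCounts. The deposited counts are raw read-pair counts per gene symbol, without use of strand, and pairs that mapped to several places or to several genes were not counted. The gene lengths in bases deposited with the counts gave RPKM. Total counts of 4663484 to 6375582 per library limit the precision for genes of few counts.

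R 4.3.3 with edgeR 4.0.16 was used. Genes whose RPKM averaged 1 or more were kept (11378), TMM factors were computed on them and the 6 conditions were fitted together, with quasi-likelihood tests and Benjamini-Hochberg adjustment over all tested genes. Calls used an adjusted p under 0.05, alone or with a change over 1.5-fold. The likelihood ratio test of the methods, DESeq2 1.42.0, other normalizations, no filter, a pairwise fit, a replicate block and each library left out were alternatives. In a test on simulated data for 100 nM, the calls took in 99.5% of 200 genes set 3-fold apart and 6 of 11178 left alone. The 200 genes had mean counts of at least 20, and a common dispersion was used for all genes. Recovery of smaller changes, or of genes with fewer counts, was not simulated.

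Named genes were the 10 members, at most 10 called genes of the wider list with the largest change, the 5 genes nearest to Optn in dose pattern and the genes within 250 kb. Tfeb, Tfe3, Bnip3l, Fkbp8, Bcl2l13 and Phb2 were named after their values were seen. The members and lists were chosen with earlier results of these data known. Upstream sequences came from RefSeq on mm10, and their motifs were searched on both strands.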

Additional observations from a re-analysis of the deposited data

How the results depend on the processing

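The member counts per dose were small, and changes of 1 gene moved them. Leaving out each library in turn gave 0 to 1 genes higher at 1 nM, 0 to 2 at 3 nM, 1 to 2 at 10 nM and 0 to 2 at 100 nM, 0 to 1 lower at 10 nM, and 1 to 3 changed over all doses. In the wider list it gave 3 to 6 higher and 9 to 19 lower genes at 100 nM. Without normalization factors no gene was higher at 1 nM (0) or lower at 10 nM (0), with DESeq2 0 were lower at 10 nM, and with no filter on low values 1 was higher at 100 nM. The wider list had 10 lower genes with DESeq2 and 10 without normalization factors. Over all tested genes at 100 nM, 1151 were higher and 1511 lower, beside 745 and 1052 with DESeq2, 1157 and 1019 without normalization factors, which turns the balance, and 1172 and 2215 with no filter on low values, and 720 to 1234 higher and 1047 to 1598 lower with 1 library left out. The control level of Tax1bp1 was 83.1 RPKM without normalization factors and 84.3 RPKM with the upper quartile. The test of Tax1bp1 over all doses did not pass without normalization factors (edgeR adjusted p = 0.191) or without 100 nM replicate 1.

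Signs changed only for values that did not pass. At 100 nM without the filter on low values, the log2 value of Sqstm1 was -0.057, that of Nbr1 -0.012 and that of Gabarapl1 -0.040. Leaving out single libraries gave log2 values at 100 nM of -0.043 to 0.091 for Sqstm1, -0.065 to 0.41 for Map1lc3a and -0.10 to 0.20 for Gabarapl1, and at 0.3 nM of -0.050 to 0.21 for Tbk1 and -0.14 to 0.012 for Map1lc3b. Correlations of same-numbered deviations ran from -0.09 to 0.09, with 0 of 15 pairs of conditions over 0.1. They gave no sign that replicate numbers pair the libraries. With 2 libraries per condition they cannot show that same-numbered libraries were handled apart. With the replicate block the log2 fold change of Tax1bp1 at 100 nM was -0.32 and that of Tbk1 0.39, and the member counts did not change.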
